A study of Drosophila melanogaster with 14 samples.

Results

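The genes described here are the translation initiation, elongation and release factors of Drosophila melanogaster, taken as every gene whose symbol starts with eIF, Ef1, Ef2 or eRF. They are 35 of the 15682 genes listed for early embryos and late extracts, and 34 of the 15288 listed for wt and mutant embryos. Of these 34, 33 matched by symbol, and Ef2b, which that table lists as EF2, was joined by its gene ID. eIF4E-3 was not analysed there. By role the genes are 3 subunits of eIF2, 5 of its exchange factor eIF2B, 5 of eIF3, 5 of the cap-binding group eIF4F and its partners, 5 further eIF4E paralogs, 3 factors of scanning and subunit joining, 6 elongation genes with eIF-5A, and eIF4AIII, eIF6 and eRF1.

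RNA was sequenced from 14 libraries, 2 in each of 7 groups. Oregon R embryos (wt) were taken whole at 0 to 45 min after egg laying (early), as cytoplasmic and as nuclear extracts at 90 to 180 min (late), and whole at 0 to 180 min. Whole embryos of 0 to 180 min were also taken from transheterozygous mothers that carried grpfs1, Slbp10/12 or Slbp10/15 and had been crossed to wt Oregon R males, so that the mutation is in the mother. grp encodes the replication checkpoint kinase Chk1, and Slbp the protein that binds the stem loop of histone mRNAs. Nothing in the sources used here tells if replicates were separate collections, so the p-values cover no more than the spread among these libraries, which may be technical.

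Translation starts when eIF2 brings the initiator tRNA to the small ribosomal subunit, which eIF3 holds and eIF4F leads to the capped end of the mRNA. Within eIF4F, eIF-4E binds the cap, eIF4G is the scaffold and eIF-4a, an RNA helicase, opens structure in the leader. Elongation factors then bring each aminoacyl-tRNA and move the ribosome along, and eRF1 reads the stop codons. In the fly embryo the first divisions run on maternal mRNA, which is regulated largely at translation.

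The value per gene is a normalized count, the reads of a gene divided by 1 size factor per library. Totals ran from 17368684 to 33866670 reads. The targeted genes were low where the labels place the mutations. grp had 2059 and 1718 normalized counts in grpfs1 against 14113 and 13306 in wt. Slbp had 211 and 236 in Slbp10/12 and 262 and 186 in Slbp10/15 against 2776 and 2873 in wt. The snRNAs, which act in the nucleus, ran against the names of the extracts. They summed to 714919 and 1151179 normalized counts in the cytoplasmic and 73732 and 70197 in the nuclear libraries, and the extracts are named here as labelled. Genes first transcribed in the blastoderm summed to 31988 and 37963 in the cytoplasmic and 74440 and 93492 in the nuclear libraries. By limma 4 of 13 were called higher in nuclear libraries and none lower, against 26.9% higher and 28.6% lower among the 10335 genes tested. Ribosomal protein mRNAs took 19.3% and 34.9% of the reads of the cytoplasmic libraries and 9.34% and 9.96% of the nuclear ones. Muscle and cuticle genes of later embryos were unequal within extracts, with sums of 5964 and 31273 in cytoplasmic libraries against 42326 and 14911 in nuclear ones, and summed to 37076 and 32789 in early ones. They summed to 24392 and 27298 in wt, 30.8 and 4057 in grpfs1, 94.3 and 92.6 in Slbp10/12 and 186 and 161 in Slbp10/15, all 12 genes of the list being above 0 in both wt libraries. Sums of the ovary and testis lists stayed at or under 29.7 and 71.2 in every library. In bulk RNA, fewer cells of a type and less RNA per cell cannot be told apart.

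Levels per length could be compared in wt embryos of 0 to 180 min, for which FPKM values are given (fragments scaled by gene length and by library size). Ef1alpha48D, which carries aminoacyl-tRNA to the ribosome, stood first with 4950 and 5259 FPKM. Ef2b, the translocase, followed with 2238 and 2231 FPKM, and eIF-5A, which helps the ribosome through difficult peptide bonds, with 1564 and 1499 FPKM. Next came Ef1beta with 1065 and 1033, eIF-4a with 967 and 949, and Ef1gamma with 892 and 970 FPKM. The ranges of eIF-4a and Ef1gamma overlapped, while those above them did not overlap their neighbours in the order. Across the whole order, 20 of 33 neighbouring pairs had ranges that did not overlap.

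The 6 elongation genes held 72.4% of the summed FPKM of the group. The eIF3 subunits lay together, from 302 FPKM for eIF3-S9 to 209 FPKM for eIF-3p40 (means of 2 libraries), and the eIF2 subunits from 194 to 122 FPKM. eIF-4E had 213 and 200 FPKM, and its scaffold eIF4G 131 and 123 FPKM. All 5 eIF2B subunits, which recharge eIF2 with GTP, lay lower, from 41.7 down to 24.0 FPKM. In all, 20 of the 34 genes had a mean above 100 FPKM, against a median of 0.931 FPKM over the 15288 genes listed.

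**Figure D1:**
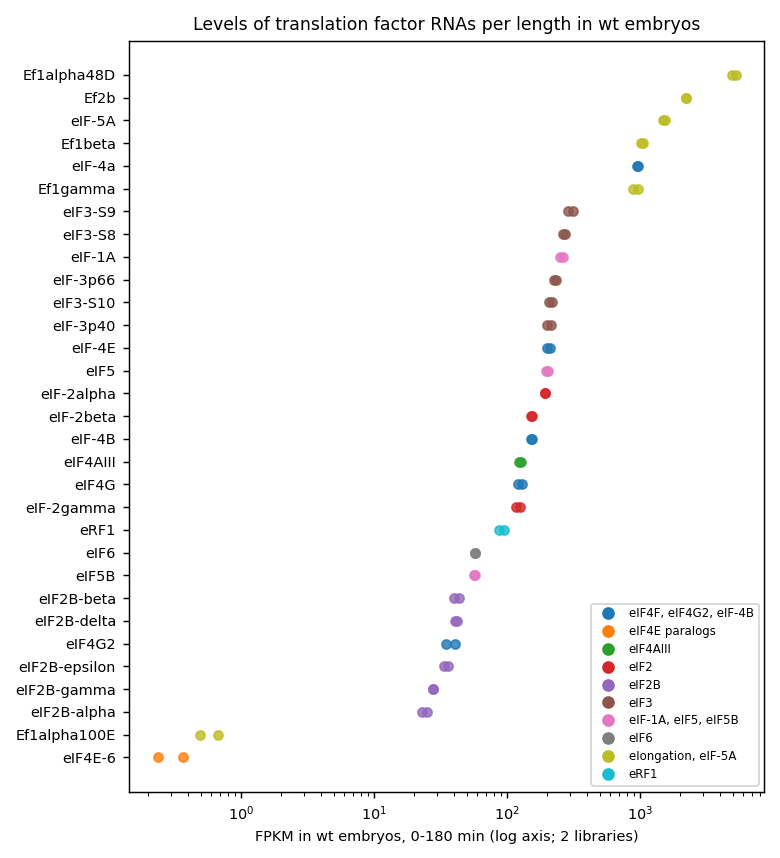
FPKM of each gene in the 2 wt libraries of 0 to 180 min on a log axis, in order of the mean and coloured by role, for the 31 genes above 0 in both libraries. Ef1alpha48D lies near 5104 FPKM, the eIF3 and eIF2 subunits between 302 and 122 and the eIF2B subunits between 41.7 and 24.0, while Ef1alpha100E and eIF4E-6 lie under 1 FPKM.

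Paralogs of the abundant factors were scarce. Ef1alpha100E, the second gene for eEF1A, known in fly for expression in later stages and in adults, had 0.674 and 0.498 FPKM in wt, and the mean of Ef1alpha48D was 8714-fold higher. Of the additional eIF4E genes, some of them known in fly from testis, eIF4E-4 had 0 reads in all 14 libraries. eIF4E-5 had 0 or 1 read in a library, eIF4E-7 had 0 to 4, and eIF4E-6 had 3 to 11 in the early and late libraries and 1 to 5 in wt and mutant ones. eIF4E-3 had 13 to 96 reads in the early and late libraries. A count of 0 allows up to 3 reads in a library, which covers counting error only. A gene was tested when its mean reached 5 normalized counts in 1 or more groups, which left 31 of the 35 genes in the early and late libraries and 30 of the 34 in the wt and mutant libraries.

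eIF-4B, a cofactor of the helicase eIF-4a, was listed at 0 in all 6 early and late libraries but had 7129 and 7042 normalized counts in wt and 6264 to 7831 in the mutants. Of 7316 genes whose wt mean was 50 or more, 70 were listed at 0 in all 6 of those libraries, 15 of them genes of the mitochondrial genome. The ribosomal protein gene RpL15, at 25546 and 24606 in wt, was another. The zeros of eIF-4B are therefore given as listed and not as absence, and the gene entered no comparison of extracts.

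The nuclear and cytoplasmic extracts of late embryos were compared to see where each mRNA lay. Initiation and elongation factor mRNAs were mostly lower in the nuclear extracts, among them all 3 subunits of eIF2 and all 5 of eIF2B, while the mRNAs of eIF5, eIF4G and eIF4AIII were higher there. By limma 19 of the 31 tested genes were lower in nuclear extracts and 3 were higher, against 28.6% lower and 26.9% higher among the 10335 genes tested. These 19 are 61.3% of the genes tested. The median log2 fold change of the 31 genes was −1.25, that of all genes 0.24.

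eIF-4E and eIF4G, partners in one complex, lay at opposite ends. eIF-4E (chromosome 3L, 9399618 to 9402460 in BDGP6.54) had 25309 and 17510 normalized counts in cytoplasmic libraries against 2735 and 3129 in nuclear ones. Both nuclear libraries were far below both cytoplasmic ones, by 2.85 on the log2 scale (log2 fold change −2.85, SE 0.32, limma adjusted p = 3.01e-06). eIF4G (chromosome 4, 915297 to 930715) had 4432 and 5911 in cytoplasmic libraries against 17588 and 21520 in nuclear ones, which is 1.93 on the log2 scale (SE 0.33, limma adjusted p = 0.000122). Its libraries did not overlap either, in the opposite direction. Per kilobase, the ratio of eIF-4E to eIF4G was 16.8 and 8.73 in the cytoplasmic libraries and 0.458 and 0.428 in the nuclear ones. It was 1.22 and 1.14 in early embryos and 1.63 and 1.64 in wt embryos of 0 to 180 min.

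The helicase of the complex followed eIF-4E. eIF-4a had 159105 and 192867 normalized counts in cytoplasmic libraries against 51434 and 62622 in nuclear ones, which is −1.63 on the log2 scale (SE 0.45, limma adjusted p = 0.00587). The call ended without nuclear replicate 1 or 2 (adjusted p = 0.083 and 0.0516). eIF4G2, a paralog of eIF4G known in fly for its part in the male germ line, overlapped between the extracts, with 3573 and 2484 in cytoplasmic libraries against 3197 and 4075 in nuclear ones. Its log2 fold change was 0.28 (95% interval −0.37 to 0.92, adjusted p = 0.448 from limma). After upper quartile scaling, when the all-gene median was 0.64 in place of 0.24, it passed at 0.69, and so did the eIF3 subunit eIF3-S10 at 0.57. Both were then near that median, and the counts became 18 lower and 5 higher. Among all 10335 genes they were then 2557 lower and 3118 higher.

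The largest rise in nuclear extracts was that of eIF5, which triggers GTP hydrolysis by eIF2 at the start codon. It had 2290 and 3623 normalized counts in cytoplasmic libraries against 15635 and 22364 in nuclear ones, with no overlap, and a log2 fold change of 2.70 (SE 0.34, limma adjusted p = 7.84e-06). In BDGP6.54 the locus (chromosome X, 15987008 to 15991974) shares 80.8% of its exon bases with CG46312 on the same strand. CG46312 is listed in neither table under that symbol, and the counts of eIF5 are uncertain to that extent. eIF4AIII, a core protein of the exon junction complex laid down at splicing, had 1403 and 2920 in cytoplasmic libraries against 5300 and 6806 in nuclear ones. This was a log2 difference of 1.57 (SE 0.34, limma adjusted p = 0.00102), which did not pass without nuclear replicate 2 (1.39, adjusted p = 0.0742).

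**Figure D2:**
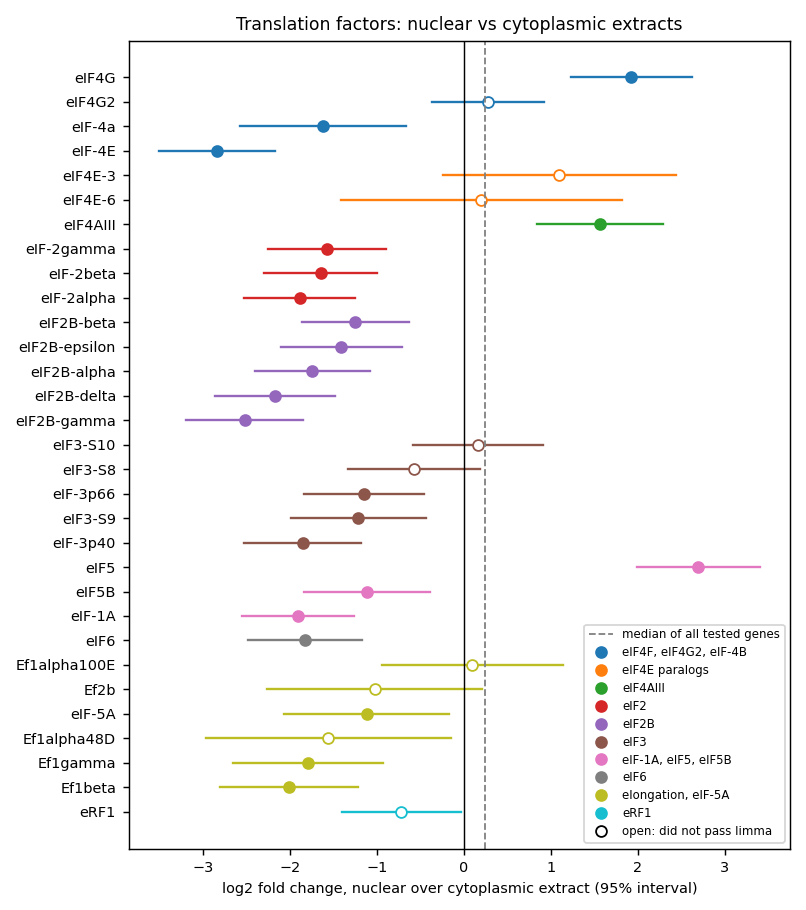
Log2 fold change of nuclear over cytoplasmic extracts with its 95% interval for the 31 tested genes, coloured by role and filled where limma called a difference; the dashed line marks the median of all tested genes, 0.24. eIF5, eIF4G and eIF4AIII lie at 2.70, 1.93 and 1.57, and all 8 subunits of eIF2 and eIF2B lie between −2.53 and −1.25.

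Among the eIF2 subunits, eIF-2alpha, whose phosphorylation shuts down initiation, had 17654 and 14617 normalized counts in cytoplasmic libraries against 4084 and 4601 in nuclear ones. The log2 fold changes were −1.89 for eIF-2alpha, −1.65 for eIF-2beta and −1.58 for eIF-2gamma, each with an SE of 0.30 to 0.32 (adjusted p at most 0.000568 from limma). The cytoplasmic libraries of eIF-2gamma were far apart, at 14906 and 9330, and still above the nuclear ones at 3700 and 4220. In eIF2B, eIF2B-gamma had 4532 and 2745 in cytoplasmic libraries against 567 and 660 in nuclear ones, which is −2.53 on the log2 scale (SE 0.32, limma adjusted p = 8.78e-06). eIF2B-beta, at −1.25 (SE 0.29, adjusted p = 0.00169), changed least among the 5 subunits. The call of eIF2B-epsilon held in 13 of 15 alternatives, with log2 values from −1.85 to −0.97. In each of the 8 genes, both nuclear libraries lay below both cytoplasmic ones. With 2 libraries a group this is common. The libraries did not overlap in 27 of the 31 tested genes here, nor in 19 of 30 between the Slbp mutants, where none was called. The share among all genes was not computed. In the current annotation eIF-2gamma shares 16.0% of its exon bases with Su(var)3-9 on the same strand, and eIF-2alpha 12.6% with rngo on the other strand.

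The eIF3 subunits were uneven. eIF-3p40 had 23250 and 28314 normalized counts in cytoplasmic libraries against 6143 and 8172 in nuclear ones, which is −1.86 on the log2 scale (SE 0.32, limma adjusted p = 0.000128). It shares 16.8% of its exon bases with senju on the other strand. eIF3-S9 (−1.22) and eIF-3p66 (−1.15) were also lower, but neither passed without nuclear replicate 1 (adjusted p = 0.0878 and 0.0636), nor did eIF3-S9 without early replicate 1 or 2 (0.0522 and 0.0511). eIF3-S8 at −0.58 and eIF3-S10 at 0.16 did not pass (adjusted p = 0.181 and 0.709 from limma). eIF3-S10, the large scaffold subunit, had 26046 and 22957 in cytoplasmic libraries against 24115 and 31061 in nuclear ones, which overlapped. The 5 subunits thus ran from −1.86 to 0.16, and differences between them were not tested.

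Of the 6 elongation genes 3 were called lower in nuclear extracts, and the most abundant ones, Ef1alpha48D and Ef2b, did not pass. Ef1beta, which exchanges the nucleotide on eEF1A, had 62122 and 87527 normalized counts in cytoplasmic libraries against 15721 and 21043 in nuclear ones (log2 fold change −2.02, SE 0.38, limma adjusted p = 0.00026). Ef1gamma, its partner, changed by −1.80 (SE 0.41, adjusted p = 0.00137), which did not pass without nuclear replicate 1 (0.0508). eIF-5A passed narrowly at −1.12 (SE 0.45, limma adjusted p = 0.0439), a call that held in 5 of 15 alternatives. It ended without either early library (adjusted p = 0.128 and 0.123), either nuclear library (0.257 and 0.113) or cytoplasmic replicate 2 (−0.74, 0.178), and with upper quartile scaling (−0.71, 0.211). Ef1alpha48D had 634200 and 851073 in cytoplasmic libraries against 212196 and 291784 in nuclear ones, with no overlap. Its log2 fold change of −1.56 had a 95% interval of −2.98 to −0.15 and an adjusted p of 0.0569 from limma, against 0.00199 from edgeR. Ef2b, at −1.03, gave 0.144 and 0.0121 with the same tools. Ef1alpha48D passed in only 4 of 15 alternatives, and Ef2b in 2 of 15. Ef1alpha100E overlapped between the extracts, at 111 and 154 in cytoplasmic libraries against 139 and 140 in nuclear ones.

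Of the factors that start, join or end translation, eIF-1A, needed for scanning, had 18986 and 19337 normalized counts in cytoplasmic libraries against 4769 and 5444 in nuclear ones (log2 fold change −1.91, SE 0.30, limma adjusted p = 6.4e-05). eIF6, which keeps the large ribosomal subunit from joining too early, changed by −1.83, and eIF5B, which promotes joining, by −1.11. For eIF5B the value was −0.63 without cytoplasmic replicate 1 (adjusted p = 0.0466), and the call ended without nuclear replicate 1 or 2 (0.164 and 0.0866). eRF1 did not pass at −0.72 (95% interval −1.41 to −0.04, adjusted p = 0.0665 from limma), with 18409 and 15217 in cytoplasmic libraries against 8885 and 11564 in nuclear ones. The eIF4E paralogs eIF4E-3 and eIF4E-6, at 1.10 and 0.20, rested on few reads and did not pass. Without nuclear replicate 1 fewer genes of the group were called lower, and without nuclear replicate 2 fewer were called higher, among all genes as well.

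Other genes of translation, from a list of 16 whose symbols the rule leaves out, were split between the extracts. By limma 7 of 15 tested were higher in nuclear extracts and 5 were lower, against 26.9% and 28.6% of all genes. Those higher included PEK and Gcn2, kinases of eIF2 alpha, at 3.02 and 1.73, Paip2, an inhibitor of the poly(A)-binding protein, at 2.60, and Pdcd4, an inhibitor of eIF4A, at 2.60. Those lower included pelo, which rescues stalled ribosomes, at −2.69, and Elf, the eRF3 partner of eRF1, at −1.30. The eIF3 subunits Trip1 (−1.18) and Int6 (−1.17), which the rule also misses, were lower. NAT1, a relative of eIF4G, eEF1delta and Lk6, a kinase of eIF-4E, were higher at 1.84, 1.15 and 1.08, and 4EHP, a cap-binding relative of eIF-4E, was lower at −0.76. The median of the list was 0.42. Of 21 aminoacyl-tRNA synthetases 17 were lower and 1 higher (median −1.63), of 90 cytosolic ribosomal protein genes 81 were lower and 1 higher (median −2.16), and both mitochondrial factors listed, EfTuM and ico, were lower.

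mRNA length ran with these differences. Spearman's correlation across genes between the length given with the counts and the log2 fold change of nuclear over cytoplasmic extracts was 0.50 over 30 translation factors and 0.32 over 10104 tested genes. Genes of a library share its depth and scaling and are not independent replicates. The part of length in the differences was not tested.

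Early embryos were compared with the late cytoplasmic extracts next. Stage and fractionation cannot be told apart in this comparison, which shares the cytoplasmic libraries with the one above. Of the elongation genes 4 of 6, of the eIF3 subunits 4 of 5, and the helicase eIF-4a were higher in the late cytoplasmic extracts, and eIF5, eIF4G and eIF4G2 were lower. By limma 15 of 31 genes were higher and 3 lower, against 17.8% higher and 19% lower among all genes tested. The median log2 fold change was 0.98, that of all genes 0.00. With no filter on low values 9 were called higher, against 737 of all 15682 genes. Without either early library fewer were called higher, in the group and among all genes.

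Ef1beta rose from 16196 and 16018 normalized counts in early embryos to 62122 and 87527, which is 2.19 on the log2 scale (SE 0.38, limma adjusted p = 0.000381). Ef1gamma rose from 27071 and 23532 to 103034 and 124481 (2.17, SE 0.41, adjusted p = 0.000797). The early pairs were tight and far below the cytoplasmic pairs in both genes. Ef1alpha48D moved from 249737 and 230893 to 634200 and 851073, with 1.61 and an adjusted p of 0.068 from limma, against 0.00353 from edgeR. Ef2b had 1.39 and 0.0712 from limma. Ef1alpha48D and Ef2b each passed in only 3 of 15 alternatives. All 6 elongation genes had positive values, and 4 of them passed.

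Ef1alpha100E was low but moved in both late extracts. It had 24.3 and 25.3 normalized counts in early embryos, against 111 and 154 in the cytoplasmic and 139 and 140 in the nuclear libraries. Both extracts lay above both early libraries, with log2 fold changes of 2.35 (SE 0.49, limma adjusted p = 0.00175) and 2.45 (SE 0.49, adjusted p = 0.00123). It was the only gene of the group called higher in nuclear extracts than in early embryos, a call that ended without nuclear replicate 1 or 2 (adjusted p = 0.0797 and 0.0675).

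eIF4G and eIF5 were high in early embryos. eIF4G had 24008 and 24014 normalized counts there against 4432 and 5911 in late cytoplasmic extracts, which is −2.23 on the log2 scale (SE 0.33, limma adjusted p = 0.000106). eIF5 had 15732 and 14450 against 2290 and 3623, which is −2.39 on the log2 scale (SE 0.34, adjusted p = 6.74e-05). The nuclear level of eIF5 overlapped the early one. eIF4G2 fell by 0.91 (SE 0.31, adjusted p = 0.0276), which did not pass without early replicate 1 or 2 (adjusted p = 0.252 and 0.215) or nuclear replicate 1 or 2 (0.0622 and 0.0628). eIF-4E rose from 9956 and 9279 to 25309 and 17510 (1.13, SE 0.32, adjusted p = 0.0111), which did not pass without early replicate 1 or 2 (0.132 and 0.173).

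**Figure D3:**
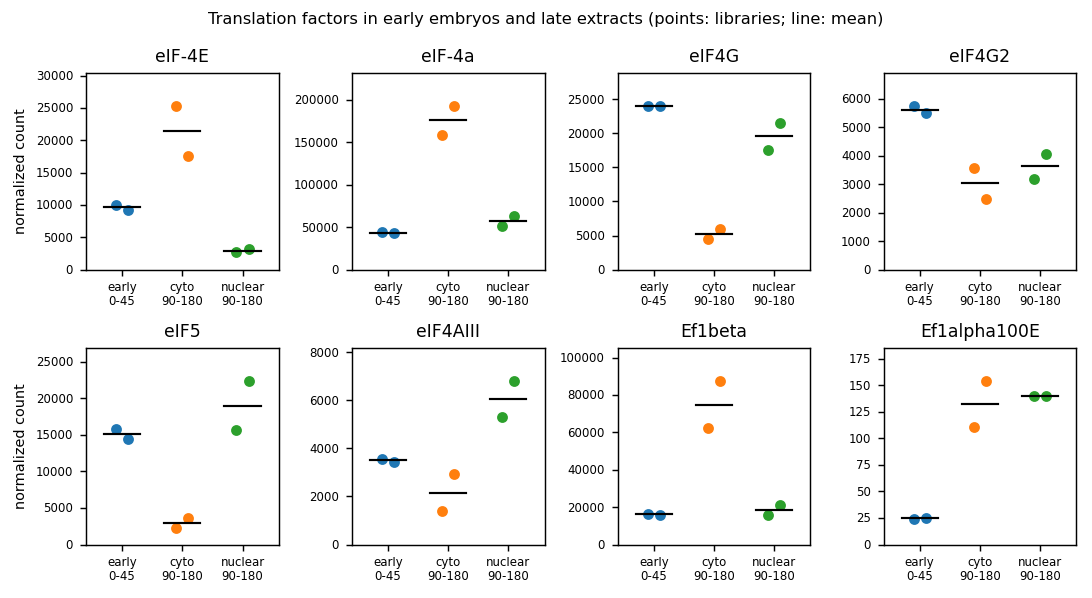
Normalized counts of 8 genes in the 2 early, 2 cytoplasmic and 2 nuclear libraries (points) with the mean of each group (line); every axis starts at 0. eIF-4E, eIF-4a and Ef1beta are highest in cytoplasmic libraries, eIF4G and eIF5 lowest there, and Ef1alpha100E lies at 24.3 and 25.3 in early libraries against 111 to 154 in late ones.

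Of the other genes, eIF-3p40 rose by 2.05, eIF-4a by 2.01 and eIF-1A by 1.61, and among the eIF3 subunits 4 of 5 were called higher. The call of eIF-4a ended without early replicate 1 or 2 (adjusted p = 0.0697 and 0.0712). The eIF2B subunits gamma, alpha and beta rose by 1.21, 1.12 and 0.89, while delta and epsilon did not pass. eIF-2alpha rose by 1.36. Each of these 4 calls ended without early replicate 1 or 2 (adjusted p from 0.0738 to 0.249). In contrast, eIF-2gamma (0.23) and eIF-2beta (−0.04) did not pass and overlapped between groups. Of the 16 related genes, 3 were higher, namely Int6, Trip1 and pelo at 1.70, 1.56 and 1.46, and 5 were lower, among them NAT1 at −3.42 and Paip2 at −2.53. Of 21 aminoacyl-tRNA synthetases 9 were higher and none lower, and of 90 ribosomal protein genes 83 were higher and 1 lower. Among all genes 17.8% were higher and 19% lower. EfTuM and ico were both higher.

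Late nuclear extracts and early embryos differed less. Stage and fractionation cannot be told apart here either, and these libraries were also used in the comparisons above. By limma 1 gene was higher and 6 were lower of 31, against 8.35% and 15.7% of all genes. Those lower were eIF-4E, eIF6, 2 subunits of eIF2 and 2 of eIF2B. eIF-2beta went from 6478 and 7025 normalized counts to 2003 and 2187 (log2 fold change −1.69, SE 0.31, limma adjusted p = 0.000525). eIF-4E changed by −1.72, eIF2B-delta by −1.64, eIF-2gamma by −1.35, and eIF2B-gamma and eIF6 by −1.32 each. Without either nuclear library all of these calls ended, and without either early library some did. Calls among all genes fell in each case as well. Without either cytoplasmic library more of the group were called in each direction, again among all genes as well. Elongation genes other than Ef1alpha100E lay between 0.05 and 0.37. Of the related genes 2 of 15 were lower, NAT1 at −1.58 and pelo at −1.24, and of the aminoacyl-tRNA synthetases 11 of 21, while no ribosomal protein gene or mitochondrial factor passed by limma.

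As a share of all reads, the group took 2.86% and 2.78% in early embryos, 4.32% and 5.58% in the cytoplasmic and 3.11% and 3.22% in the nuclear libraries, and 3.21% to 3.41% in wt and mutant embryos. Elongation genes took between 66.6% and 77.1% of these reads. The share was highest in the cytoplasmic library in which ribosomal proteins were also highest.

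The mutants were compared with wt embryos of the same collection window. Muscle and cuticle genes summed to 24392 and 27298 in wt and to at most 4057 in mutant libraries. Blastoderm genes summed to 23445 and 23616 in wt and to 5546 to 10381 in mutant libraries. Genotype and the mix of stages therefore cannot be told apart in these comparisons. The differences of translation factors were small. Apart from Ef1alpha100E the largest was −0.59 on the log2 scale, for eIF6 in Slbp10/15. eRF1, the stop codon reader, and eIF5B were called higher in all 3, in comparisons that share the wt libraries, and eIF6 was called lower in both Slbp mutants. In grpfs1, 10 of 30 genes had an unadjusted limma p under 0.05, a threshold at which all genes were not counted. After adjustment 5 were higher and none lower, against 14.3% and 28.7% of 9868 genes tested. In Slbp10/12 there were 3 higher and 2 lower, against 15.6% and 33%, and in Slbp10/15 3 higher and 5 lower, against 20.1% and 38.9%. The median log2 fold changes of the group were 0.04, −0.05 and 0.04, and those of all genes −0.10, −0.11 and −0.19.

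The direction of such small differences depends on the scaling. In wt libraries 11499 and 11524 genes were above 0, and in mutant libraries 8987 to 10915. After upper quartile scaling the all-gene median was −0.41 in grpfs1, −0.49 in Slbp10/12 and −0.56 in Slbp10/15. The calls then were 0 higher and 6 lower, 0 and 15, and 0 and 12 of 30 translation factors. Among all 9868 genes they were 176 higher and 3771 lower, 174 and 5197, and 238 and 5241. With edgeR the counts were 10 and 0, 7 and 0, and 7 and 2, and with DESeq2 7 and 2, 3 and 6, and 7 and 6. Among all genes edgeR gave 1993 and 1846, 2267 and 2583, and 2445 and 2951. DESeq2 gave 1243 and 1614, 1367 and 2208, and 1783 and 2602. Genes called against wt are therefore also given relative to the median of all genes of their comparison. This median depends on the genes tested. With at least 5 in every library it was 0.054 in grpfs1, 0.048 in Slbp10/12 and 0.041 in Slbp10/15, over 6788 genes. The relative values, and the signs of small ones, hold for the main filter only.

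eRF1 (chromosome 3L, 20348355 to 20353873) had 5812 and 6413 normalized counts in wt, 8822 and 7986 in grpfs1, 7616 and 7508 in Slbp10/12 and 8051 and 7849 in Slbp10/15. Every mutant library lay above both wt libraries. The log2 fold changes were 0.46, 0.31 and 0.38 (each with an SE of 0.07, limma adjusted p = 0.0032, 0.0105 and 0.0041), and 0.15, −0.07 and 0.00 with upper quartile scaling. Relative to the median of all genes they were 0.56, 0.42 and 0.57 by the main and 0.56, 0.42 and 0.57 by upper quartile scaling. Upper quartile scaling divides all genes of a library by the same number, so this match was fixed in advance and is no further support. The call in Slbp10/12 ended without wt replicate 1 (adjusted p = 0.0729) and without Slbp10/12 replicate 1 (0.0544). eRF1 shares 6.07% of its exon bases with CG5618 on the same strand.

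eIF5B, a GTPase of subunit joining, had 5549 and 5497 normalized counts in wt, 7224 and 6689 in grpfs1, 6132 and 6399 in Slbp10/12 and 6672 and 6214 in Slbp10/15. All 6 mutant libraries were above wt. The log2 fold changes were 0.33, 0.18 and 0.22 (each with an SE of 0.06, limma adjusted p = 0.00637, 0.0429 and 0.0182), with 0.02, −0.20 and −0.16 under upper quartile scaling. Relative to the median of all genes they were 0.43, 0.30 and 0.41. The Slbp10/12 call was lost under each of the wt and Slbp libraries left out, and the Slbp10/15 call without wt replicate 1 or 2 or Slbp10/15 replicate 1.

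eIF6 (chromosome 2R, 23849246 to 23850301) had 1301 and 1313 normalized counts in wt and 1361 and 1277 in grpfs1, which overlapped. It had 946 and 1069 in Slbp10/12 and 924 and 811 in Slbp10/15, below all 4 of the other libraries. The log2 fold changes against wt were −0.38 in Slbp10/12 (SE 0.09, limma adjusted p = 0.0145) and −0.59 in Slbp10/15 (SE 0.09, adjusted p = 0.00243), and −0.26 and −0.41 relative to the median of all genes. The fall in Slbp10/15 kept its call with every alternative. The one in Slbp10/12 did not pass without wt replicate 1 or 2 or Slbp10/12 replicate 1 (adjusted p = 0.0834, 0.0849 and 0.0808) or with edgeR (0.0546). In grpfs1 eIF6 was at 0.01 (95% interval −0.21 to 0.23), and at −0.30 with upper quartile scaling.

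In grpfs1, Ef1beta had 23134 and 22418 normalized counts against 18492 and 17926 in wt, which is 0.32 on the log2 scale (SE 0.06, limma adjusted p = 0.00623), and 0.01 with upper quartile scaling. eIF-2alpha had 6560 and 5657 against 4931 and 4917, which is 0.31 on the log2 scale (SE 0.07, adjusted p = 0.0152), which turned to −0.00 with upper quartile scaling and did not pass without wt replicate 1 or 2 (adjusted p = 0.0907 and 0.0923) or grpfs1 replicate 1 (0.0511). eIF-3p40 followed at 0.19 and turned to −0.12. Relative to the median of all genes these were 0.42, 0.41 and 0.29. The call of eIF-3p40 ended without either wt library or either grpfs1 library (adjusted p from 0.0508 to 0.137). The other 4 eIF3 subunits did not pass and lay between −0.15 and 0.19. Without wt replicate 1 or grpfs1 replicate 1 fewer genes of the group were called higher, among all genes as well.

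In Slbp10/15, eIF-4E had 7940 and 7774 normalized counts against 10191 and 9610 in wt, with no overlap and a log2 fold change of −0.33 (SE 0.06, limma adjusted p = 0.0034). This call held with every alternative, and relative to the median of all genes the value was −0.15. In grpfs1, with 10086 and 9661, eIF-4E overlapped wt. eIF2B-gamma (−0.36), eIF-2gamma (−0.27) and eIF-1A (−0.14) were also called lower in Slbp10/15 and eIF-3p40 (0.18) higher, which turned to −0.19 with upper quartile scaling. Relative to the median of all genes, eIF2B-gamma lay at −0.17, eIF-2gamma at −0.09, eIF-1A at 0.05 and eIF-3p40 at 0.37. With at least 5 in every library that median was 0.041, and eIF-1A lay below it. These 4 calls held in 11, 8, 9 and 11 of 16 alternatives. In Slbp10/12, eIF2B-delta was higher at 0.25, which turned to −0.13, and eIF-3p66 lower at −0.16. They were 0.36 and −0.05 relative to the median of all genes, and their calls held in 10 and 11 of 16 alternatives. eIF4G and eIF-4a passed in no mutant, with values from −0.20 to −0.04. Without either wt or either Slbp10/12 library fewer genes of the group were called in Slbp10/12, among all genes as well. In Slbp10/15 fewer were called lower without either wt or either Slbp10/15 library. Fewer were called higher there without Slbp10/15 replicate 1. Both falls were seen among all genes as well.

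Ef1alpha48D, Ef2b, Ef1gamma and eIF-5A, the elongation genes beside Ef1beta and Ef1alpha100E, passed in no mutant. Ef1alpha48D had 248591 and 264120 normalized counts in wt and 250514 to 267432 in the mutants, which overlapped. The log2 values of these 4 genes lay between −0.19 and 0.11. Those of eIF-2beta lay between −0.34 and 0.10, those of eIF4AIII and eIF4G2 between −0.17 and 0.10, and those of eIF-4B between −0.02 and 0.12, none of them past the threshold by limma.

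**Figure D4:**
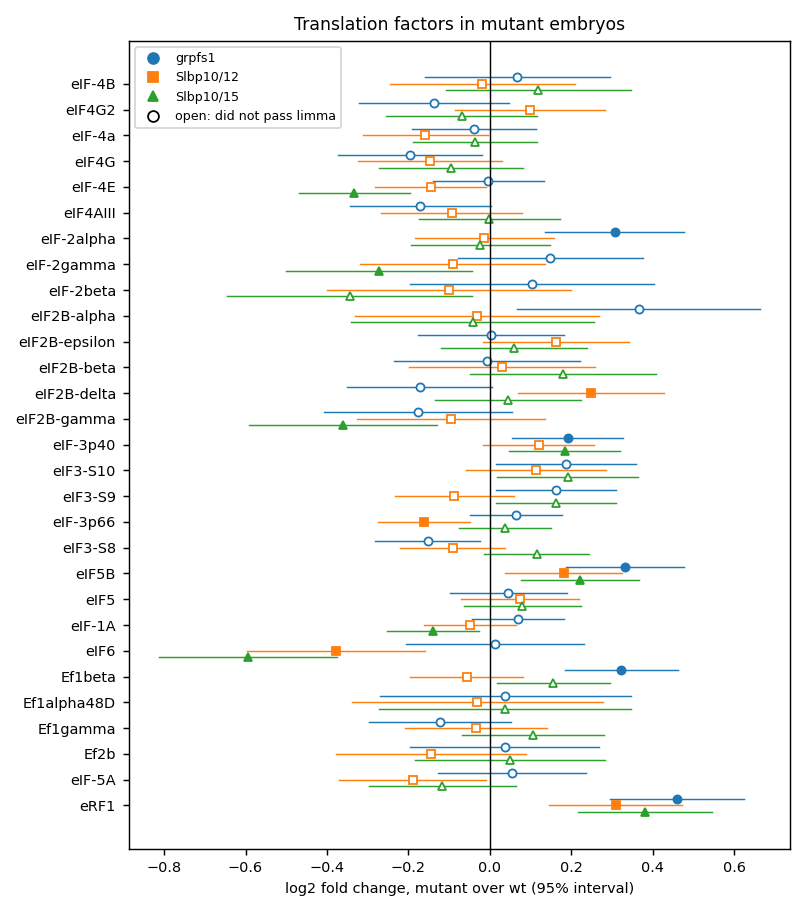
Log2 fold change of grpfs1 (circles), Slbp10/12 (squares) and Slbp10/15 (triangles) over wt with 95% intervals for 29 tested genes, filled where limma called a difference; Ef1alpha100E is left out for scale. eRF1 lies at 0.46, 0.31 and 0.38 and eIF6 at 0.01, −0.38 and −0.59, values that shift to 0.15, −0.07 and 0.00 and to −0.30, −0.76 and −0.97 with upper quartile scaling.

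Ef1alpha100E had the largest differences and the least support. It had 38.4 and 28.4 normalized counts in wt, 8.4 and 40.5 in grpfs1, 10.1 and 6.99 in Slbp10/12 and 23.1 and 1.98 in Slbp10/15, from 2 to 43 reads. The Slbp libraries lay below wt, and the grpfs1 libraries on either side of it. The log2 fold changes of −0.78, −1.85 and −2.01 had SEs of 1.07 and did not pass (adjusted p = 0.576, 0.188 and 0.143 from limma). Slbp10/12 passed with only the groups compared (0.0117), and Slbp10/15 without its replicate 1 (−3.51, 0.026). The grpfs1 library with the higher Ef1alpha100E was also the one with the higher sum of muscle and cuticle genes, and the part of that in these values was not tested.

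**Figure D5:**
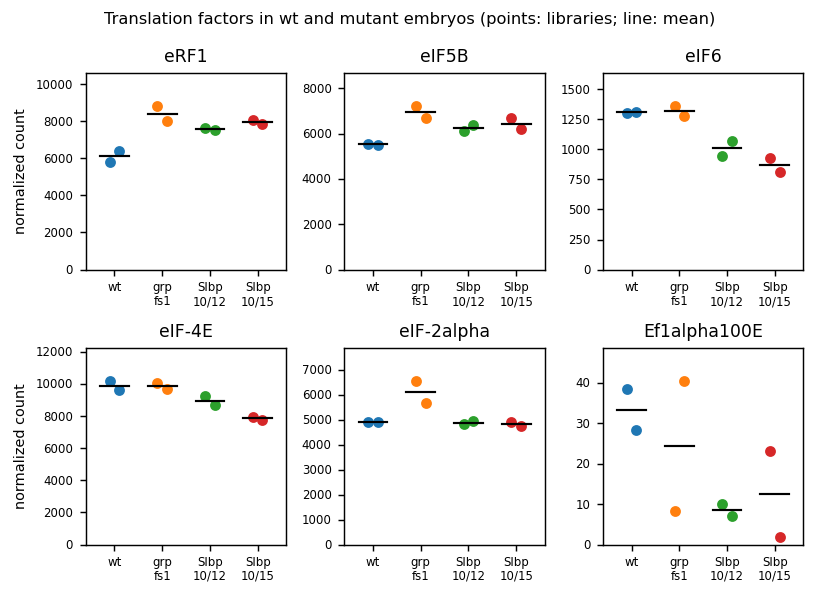
Normalized counts of 6 genes in the 2 wt, 2 grpfs1, 2 Slbp10/12 and 2 Slbp10/15 libraries (points) with the mean of each group (line); every axis starts at 0. All mutant libraries lie above wt for eRF1 and eIF5B on this scaling, the Slbp libraries lie below 1069 or at it for eIF6, and the points of Ef1alpha100E in grpfs1 are 8.4 and 40.5.

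grpfs1 was then compared with the mean of the Slbp mutants. By limma 8 of 30 genes were higher in grpfs1 and 2 lower, against 19.4% and 16.3% of all genes. With upper quartile scaling these were 4 and 0, against 1428 and 600 of all 9868 genes. eIF6 stood first at 0.50, followed by eIF2B-alpha at 0.40, eIF-2gamma and eIF-2alpha at 0.33 each, Ef1beta at 0.27, eIF-4E at 0.24, eIF-5A at 0.21 and eIF-1A at 0.16. eIF2B-delta (−0.32) and eIF3-S8 (−0.16) were lower. The calls of eIF6 (SE 0.08, adjusted p = 0.00395) and eIF-2alpha (SE 0.06, adjusted p = 0.00743) held with every alternative. Of 16 alternatives, the call held in 15 for Ef1beta, 14 for eIF-4E and eIF2B-delta, 12 for eIF-1A, 10 for eIF-2gamma and eIF3-S8, 8 for eIF2B-alpha and 6 for eIF-5A. Without grpfs1 replicate 1 or Slbp10/15 replicate 2 fewer genes of the group were called in each direction. Without grpfs1 replicate 2, Slbp10/12 replicate 2 or Slbp10/15 replicate 1 fewer were called lower. Each of these counts fell among all genes as well.

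Between the Slbp mutants no translation factor passed in either direction by limma, against 1.48% and 1.81% of all genes. At an unadjusted p under 0.05 there were 7, a threshold at which all genes were not counted. By edgeR there were 0, against 114 higher and 130 lower of 9868 genes. By DESeq2 there were 6 higher and 1 lower in Slbp10/15, against 464 and 468 of 9868 genes. The values ran from −0.27 to 0.25. With only genes of at least 5 in every library, 3 were called higher, against 283 of 6788 genes.

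Of the 15 related genes tested in the mutants, 6 were higher and none lower in grpfs1, 4 and 0 in Slbp10/12 and 5 and 2 in Slbp10/15. For these and the lists below, the shares among all genes were 14.3% higher and 28.7% lower in grpfs1. They were 15.6% and 33% in Slbp10/12, and 20.1% and 38.9% in Slbp10/15. The kinase Lk6 was higher in all 3, by 0.70, 0.74 and 0.97. In Slbp10/15 pelo (−0.47) and mxt, an eIF4E-binding protein (−0.44), were lower. Of 22 aminoacyl-tRNA synthetases 11 were higher and 2 lower in grpfs1, 2 and 1 in Slbp10/12 and 5 and 6 in Slbp10/15. Of 88 ribosomal protein genes 21 were higher and 5 lower, 2 and 31, and 3 and 7. Of the mitochondrial factors, ico passed and EfTuM did not, at 0.21 in Slbp10/12 and 0.31 in Slbp10/15.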

How the data were processed

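RNA was depleted of ribosomal RNA (RiboMinus) and sequenced on a HiSeq. Per the paper and the submitters' notes, the authors checked reads with FastQC 0.10.1, aligned them with TopHat to dm3 and counted them per gene with featureCounts; the strand setting is not given in the sources used here, so that overlapping genes may share reads. The signal deposited by the authors is the normalized count, reads divided by 1 size factor per library (the notes name DESeq and the paper DESeq2). The deposited FPKM values, divided by gene length and library size by the authors, served only for levels in wt. The gene length, another value deposited in the mutant table, served for ratios per kilobase.

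Dividing by the smallest step of each library gave 100% of the values as whole reads within 0.01, used for depth, edgeR and DESeq2 only. Low genes therefore carry large counting error. Tests used limma 3.58.1 under R 4.3.3 for genes whose mean reached 5 in 1 or more groups, on log2(normalized count + 1), which understates changes of low genes, with a variance trend, 1 term per group over all groups of a table, two-sided, and Benjamini-Hochberg adjustment over all genes, threshold 0.05. The 2 tables were scaled separately and compared in no test. The test was tried on simulated data.

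The members, lists and tests were chosen with earlier results of these data known. Named with values in each comparison were the 6 largest rises and falls among called genes with a mean of at least 50 and no overlap, all genes of eIF4F, eIF2, elongation and release, and the extremes of each other role; others, and related genes beyond 4 in a comparison, were named after their values were seen. The lists were related translation factors, mitochondrial factors, aminoacyl-tRNA synthetases, ribosomal proteins, and the marker lists of snRNAs, muscle and cuticle, ovary and testis. Of the other marker lists, the 8 maternal genes gave 6 lower and 1 higher in nuclear than cytoplasmic extracts, and the 13 blastoderm genes 13 higher in each late extract than in early embryos and 10, 12 and 13 lower in grpfs1, Slbp10/12 and Slbp10/15 than in wt. The tests were repeated with edgeR 4.0.16 (quasi-likelihood) and DESeq2 1.42.0, after upper quartile scaling, with a pseudocount of 5, without the filter or with 5 required of every library, with the replicate number as a block, on the compared groups alone and without each library in turn. Positions and exon overlaps are from BDGP6.54, matched by gene ID for 32 of the 35 genes; the counts were made on dm3. No sequences were used.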

Additional observations from a re-analysis of the deposited data

Results flagged for a closer look

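Effects against wt that differed between grpfs1 and the mean of the Slbp mutants, by the test of that difference, are listed here as log2 differences (limma, Benjamini-Hochberg adjusted). eIF6 was higher in grpfs1 by 0.50, eIF2B-alpha by 0.40, eIF-2gamma and eIF-2alpha by 0.33 each, Ef1beta by 0.27, eIF-4E by 0.24, eIF-5A by 0.21 and eIF-1A by 0.16. eIF2B-delta and eIF3-S8 were lower in grpfs1, at −0.32 and −0.16. No group had enough libraries to single out 1 that stood apart.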

How the results depend on the processing

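For 103 gene values named above, 1341 of 1580 alternative values kept the direction and the side of the threshold, 182 kept the direction and lost the call, 31 gained it and 26 changed sign. Upper quartile scaling turned eIF-2alpha (−0.0045), eIF-3p40 (−0.12) and eIF6 (−0.30) in grpfs1, eRF1 (−0.072), eIF2B-delta (−0.13) and eIF5B (−0.20) in Slbp10/12, and eIF5B (−0.16) and eIF-3p40 (−0.19) in Slbp10/15. With edgeR eIF-4a was at 0.049 in grpfs1 and 0.042 in Slbp10/15 and eIF-4E at 0.084 in grpfs1. Some values that had not passed changed sign when 1 library was left out. In grpfs1, eIF6 ran from −0.034 to 0.059 (lowest without grpfs1 replicate 1), Ef1alpha100E from −1.86 to 0.29 (highest without grpfs1 replicate 1) and eIF-4E from −0.046 to 0.039 (above 0 without wt replicate 1 or grpfs1 replicate 2). Between nuclear and cytoplasmic extracts, eIF3-S10 ran from −0.020 to 0.35 (lowest without nuclear replicate 2), Ef1alpha100E from −0.14 to 0.33 (lowest without cytoplasmic replicate 1) and eIF4E-6 from −0.27 to 0.67 (below 0 without cytoplasmic replicate 2 or nuclear replicate 1). Between cytoplasmic extracts and early embryos, eIF-2beta ran from −0.35 to 0.28 (above 0 without early or cytoplasmic replicate 2) and eIF-2gamma from −0.11 to 0.57 (lowest without cytoplasmic replicate 1). Between nuclear extracts and early embryos, Ef1alpha48D ran from −0.18 to 0.28 (below 0 without early or nuclear replicate 2), and Ef1beta from −0.035 to 0.39 and eIF-5A from −0.095 to 0.33 (both lowest without nuclear replicate 2).

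Counts of genes moved as follows, higher before lower, and the cause was not tested. Counts among all genes moved as well. Those not given above stand beside the counts below, apart from fits with 1 library left out. For nuclear extracts against early embryos under upper quartile scaling, 1883 of 10335 genes were higher. Upper quartile scaling gave 5 higher in nuclear than cytoplasmic extracts, 2 higher in nuclear extracts than early embryos, 0 and 6 in grpfs1, 0 and 15 in Slbp10/12, 0 and 12 in Slbp10/15, and 4 and 0 for grpfs1 against the Slbp mutants. With no filter 9 were higher in cytoplasmic extracts than early embryos, against 737 of all 15682 genes. Nuclear extracts against early embryos gave 2 and 1, against 442 and 311. In grpfs1 there were 3 and 1, against 998 and 1941 of 15288, and in Slbp10/12 1 higher, against 1148. With only the groups compared there were 3 and 10 in nuclear extracts against early embryos and 3 higher in grpfs1. All genes gave 1653 and 2229 of 10193 in the first and 901 higher of 9754 in the second. edgeR gave 10 higher in grpfs1, 7 and 0 in Slbp10/12 and 7 and 2 in Slbp10/15, and DESeq2 2 lower in grpfs1, 6 lower in Slbp10/12, 7 higher in Slbp10/15 and 6 and 1 between the Slbp mutants. At least 5 in every library gave 3 higher between the Slbp mutants.

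Leaving out 1 library gave 2 to 4 higher and 12 to 19 lower for nuclear against cytoplasmic, 5 to 19 and 2 to 4 for cytoplasmic against early, 0 to 2 and 0 to 10 for nuclear against early, 3 to 6 and 0 to 0 for grpfs1, 0 to 3 and 1 to 2 for Slbp10/12, 1 to 4 and 2 to 6 for Slbp10/15, 3 to 7 and 0 to 2 for grpfs1 against the Slbp mutants, and 0 to 0 in both directions between the Slbp mutants. A lone sample was then assumed to vary like the other groups. Counts among all genes moved with each library left out as well. Same-numbered libraries correlated at −0.51 to 0.09 in their deviations, so that the numbers do not pair them. The replicate block gave 4 lower in Slbp10/12 and 12 higher in cytoplasmic extracts than early embryos. For all genes these were 3163 of 9868 and 1542 of 10335. A crossed pairing of the nuclear numbers, chosen after seeing the data, gave 3 and 20, 15 and 4, and 1 and 7 in the comparisons of extracts. All 10335 genes gave 3269 and 3110, 2183 and 2417, and 1130 and 1810.

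Genes whose mean was under 5 normalized counts in every group were not tested.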

Other observations

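Thor, the fly 4E-BP that binds eIF-4E, is not matched by the symbol rule. It was at a log2 fold change of −1.12 in grpfs1, 0.23 in Slbp10/12 and 0.74 in Slbp10/15 against wt, none of which passed limma. Against the mean of the Slbp mutants it was at −1.61 in grpfs1, which did. All of this rests on low counts. Thor had 16.3 and 42.5 normalized counts in wt and 10.3 and 13.2 in grpfs1. It had 31.1 and 31.5 in Slbp10/12 and 40.6 and 49.5 in Slbp10/15.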
